A study of Mus musculus with 13 samples.

Results

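The 2 single mutants of the study were compared directly: bulk RNA-seq libraries labelled Srsf2 mutated (n = 3) against libraries labelled Setd2 knockout (n = 2). These are 5 of the 13 samples of the series and 5 of its 10 bulk libraries. Their counts stand in separate deposited tables, which were joined on the Ensembl identifier. All libraries are described as mouse hematopoietic stem and progenitor cells (HSPCs) of bone marrow. For the single-cell samples of the series, which were not analysed here, the labels give Setd2fl/fl and Srsf2P95H/+ alleles with Mx1-Cre, a recombinase switched on by the injected double-stranded RNA pIpC, in lineage-negative c-Kit-positive cells taken 4 weeks later from a bone marrow transplant model. For the bulk libraries the labels give genotype only, so the sort, the transplant, the time after induction, the strain and the sex are unknown. Mx1-Cre is switched on by interferon and acts in many cell types, so the mutations need not be limited to blood stem cells. The labels do not say whether libraries of a group came from separate mice, and p-values therefore measure only the spread between these samples, which may be technical. Neither group is a control. A higher value in the Srsf2 mutated libraries is the same observation as a lower value in the Setd2 knockout libraries. Wild type values (n = 2) are set beside some results, with no test, as a further point of reference with the limits given below.

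SETD2 is the enzyme that places the third methyl group on lysine 36 of histone H3 along transcribed genes. SRSF2 is an SR protein, a splicing factor that binds exonic enhancers and promotes exon inclusion, and the P95H change named in the series title alters the RNA sequences it prefers. Both genes are recurrently mutated in myeloid disease, and the progenitors studied here give rise to red cells, platelets, granulocytes, monocytes and lymphocytes through steps with well known marker genes.

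The libraries held 39142427 to 47341114 counts in the Srsf2 mutated group and 42367739 and 43507677 in the Setd2 knockout group. The Setd2 knockout libraries were closely alike (coefficient of variation between libraries 0.0562), and the Srsf2 mutated libraries less so (0.194). Within the Srsf2 mutated group the median gene differed between libraries by 0.171 to 0.296 on the log2 scale, with the higher values in both pairs that held replicate 3 (0.24 and 0.296), against 0.52 to 0.595 between groups. Stem and progenitor markers were present in every library: Flt3, a receptor of early progenitors, stood at 76.67 and 74.27 CPM (counts scaled to the library total) in the Setd2 knockout libraries and at 43.27, 41.4 and 44.88 CPM in the Srsf2 mutated libraries, and Kit, Cd34, Hlf and Meis1 were above 9 CPM in each. Setd2 itself (ENSMUSG00000044791) stood at 230.8 and 212.6 CPM in the Setd2 knockout libraries and at 212.6, 221.4 and 157.3 in the Srsf2 mutated libraries (-0.17 ± 0.109 SE on the log2 scale, adjusted p = 0.224). Loss of some exons can leave the count of the whole gene unchanged, and a point mutation leaves no trace in it, so neither genotype is checked by these values.

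The libraries also differed in their sex-linked state, with 5 of 6 tested genes of a sex-linked list higher in the Srsf2 mutated libraries and 0 lower (1 of them higher under a filter of 10 counts in each of the 5 libraries). Ddx3y, Eif2s3y, Kdm5d and Uty, genes of the Y chromosome, had 0 counts in both Setd2 knockout libraries. In the Srsf2 mutated libraries Ddx3y stood at 103.7, 119.5 and 110.4 CPM, at least 3470-fold above the limit that 3 counts over both Setd2 knockout libraries would give (0.0321 CPM). For Eif2s3y, Kdm5d and Uty the same lower bounds were 1790-, 835- and 375-fold. Xist, the RNA that silences an X chromosome in female cells, was at 0.5617 and 0.6348 CPM in the Setd2 knockout and at 2.54, 1.392 and 1.417 CPM in the Srsf2 mutated libraries, against 499.4 and 471.5 in wild type. These Y-linked genes were at 0 CPM in both wild type libraries too, so wild type differed in sex-linked state from both mutant groups. Genotype and sex-linked state differ together in this comparison, and their parts in the results below cannot be told apart. The same limit holds where wild type values are set beside them. Wild type also differed from both mutant groups in nuclear-retained RNA. Malat1, such an RNA, made up 0.004892% and 0.007277% of its counts, against 0.05484% to 0.09274% in the 5 libraries compared. A list of nuclear-retained and snoRNA host RNAs summed to 370.2 and 393.4 CPM in wild type. It reached 1420 and 1490 CPM in the Setd2 knockout and 1233 to 1542 in the Srsf2 mutated libraries. The source of this difference was not tested. The X chromosome as a whole did not stand out, with 45.1% of its 588 tested genes called.

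Of 19289 tested genes, 8925 differed between the single mutants at an adjusted p under 0.05 (edgeR quasi-likelihood test, Benjamini-Hochberg adjustment), which is 46.3% of all tested genes. The calls were evenly split, with 4453 genes higher (23.1%) and 4472 lower (23.2%) in the Srsf2 mutated libraries. Large differences leaned upward: at least 2-fold, 2249 genes were higher (11.7%) and 1268 lower (6.57%). Library values of the groups did not overlap for 12346 genes (64% of those tested). The median gene differed by 0.01 on the log2 scale. Each list below is read against these shares, and a list whose share is near 23.1% or 23.2% is not set apart by its count.

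**Figure D1:**
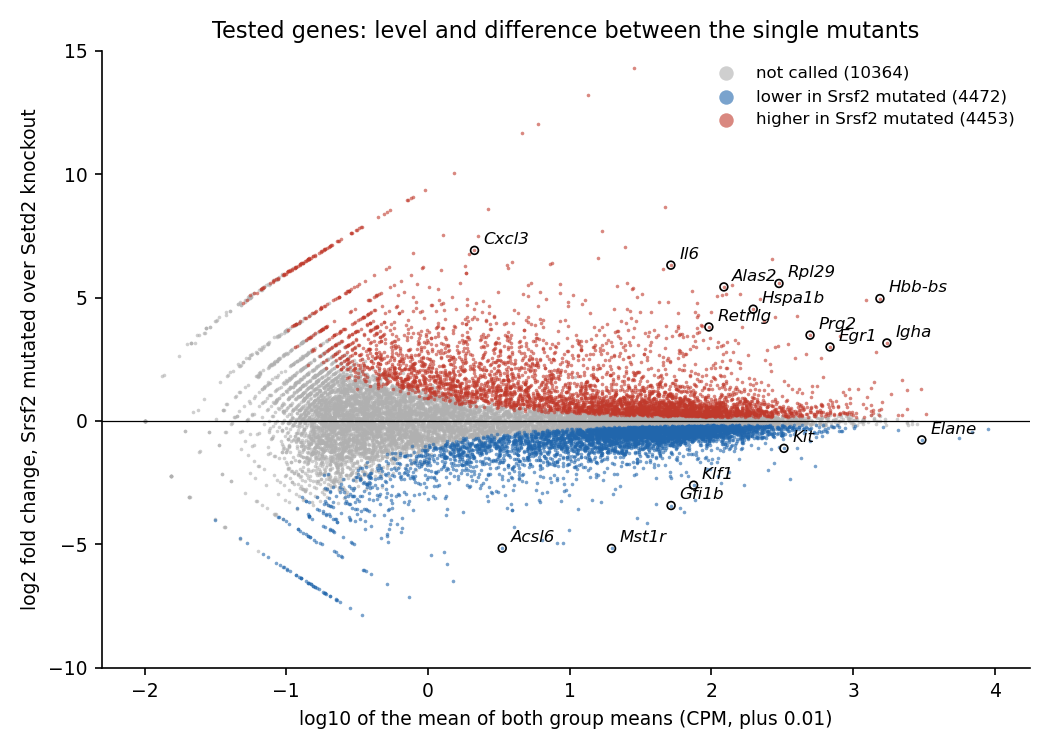
Each dot is 1 of 19289 tested genes, placed by its mean level in both groups (log10 of CPM) and its log2 fold change in the Srsf2 mutated (n = 3) over the Setd2 knockout libraries (n = 2). Red dots are the 4453 genes called higher, blue dots the 4472 called lower, and more of the large differences lie above the line (2249 genes by at least 2-fold) than below it (1268).

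Genes of stem and progenitor identity were lower in the Srsf2 mutated libraries. Of 28 tested members, 20 were lower and 1 higher, with a median log2 fold change of -0.72. Kit (ENSMUSG00000005672, chromosome 5, 75574916 to 75656722 on GRCm38), the receptor of stem cell factor, stood at 454.8 and 434.1 CPM in the Setd2 knockout libraries and at 205.1, 219.4 and 194 in the Srsf2 mutated libraries. The groups did not overlap, and Kit was 2.16-fold lower (-1.11 ± 0.0724 SE on the log2 scale, adjusted p = 4.19e-09). Wild type held a level like that of the Setd2 knockout (446.3 and 398.6 CPM). Mecom, a stem cell transcription factor, was 3.17-fold lower, at 9.117 and 10.5 against 3.175, 3.289 and 2.809 CPM (adjusted p = 1.96e-06), and Hlf and Myb, transcription factors of stem and progenitor cells, were 2.73-fold and 1.77-fold lower. The exception was Ly6a, which encodes the stem cell surface protein Sca-1 and responds to interferon: it was 3.64-fold higher, at 9.614, 9.362 and 15.46 CPM against 3.305 and 2.983 (adjusted p = 9.95e-07). Cd34 overlapped between the groups (227.4 and 228.6 against 227.8, 189.6 and 227.7 CPM, adjusted p = 0.423).

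Red cell genes did not move in 1 direction. Most erythroid transcription factors and receptors were lower in the Srsf2 mutated libraries, the globins were many-fold higher, and the membrane and heme synthesis lists held genes of both kinds. Klf1 (ENSMUSG00000054191, chromosome 8, 84901928 to 84905291), the transcription factor that switches on the erythroid programme, stood at 122.3 and 135 CPM in the Setd2 knockout libraries and at 20.68, 16.36 and 26.8 in the Srsf2 mutated libraries, 6.06-fold lower (-2.60 ± 0.136 SE on the log2 scale, adjusted p = 2.69e-10). Wild type lay between them at 48.79 and 52.99 CPM. Gfi1b (ENSMUSG00000026815), a repressor needed for red cell and platelet formation, went from 97.26 and 92.97 CPM to 9.252, 9.201 and 8.074, which was 10.7-fold lower (adjusted p = 1.15e-13). Epor, the erythropoietin receptor, stood at 68.33 and 67.69 CPM against 11.93, 15.07 and 14.71 (4.89-fold lower, adjusted p = 5.06e-11). Wild type held 15.64 and 17.01 CPM of Epor, near the Srsf2 mutated level. Gata1 and Tal1, which with Klf1 form the core of the erythroid network, were 2.88-fold and 2.89-fold lower. For Gfi1b, Gata1 and Tal1 wild type lay between the groups, as for Klf1. In none of these 5 genes did the groups overlap, which also held for 64% of all tested genes. Of 14 tested erythroid transcription factors and receptors, 12 were lower and 0 higher (median -0.90), and 12 were lower in each of the 14 alternative settings.

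The 6 tested globin genes were all higher, with a median log2 fold change of 4.42. Hbb-bs (ENSMUSG00000052305, chromosome 7, 103826534 to 103828096), an adult beta globin, stood at 98.75 and 94.03 CPM in the Setd2 knockout and at 2907, 2635 and 3454 CPM in the Srsf2 mutated libraries. It was 31.1-fold higher (4.96 ± 0.116 SE on the log2 scale, adjusted p = 2.61e-14), against 45.8 and 43.58 CPM in wild type. Hbb-bt, the other adult beta globin, was 30.4-fold higher, and Hba-a1, an alpha globin, 29.9-fold. Reads of the near-identical globin copies may have been split between them by the counting, so the levels of single copies are uncertain. Summed, the globins reached 5098 to 6832 CPM in the Srsf2 mutated libraries against 197.9 and 201.9 in the Setd2 knockout, or 0.5338% to 0.6896% of counts against 0.0215% and 0.0221%.

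Both directions were found within the lists of the red cell membrane and of heme synthesis. Of 22 tested membrane and blood group genes, 14 were lower and 6 higher. Slc4a1 (ENSMUSG00000006574, chromosome 11, 102348824 to 102366203), the band 3 anion exchanger of mature red cells, went from 8.404 and 9.056 CPM to 317.5, 324.9 and 283.8, which was 35.4-fold higher (5.14 ± 0.119 SE on the log2 scale, adjusted p = 2.37e-14). Epb42, the band 4.2 protein that anchors it, was 2.66-fold higher. Rhag, the Rh-associated glycoprotein, moved the other way, from 90.76 and 82.75 CPM to 16.24, 16.63 and 19.46 (4.98-fold lower, adjusted p = 4.04e-12). Ermap, Add2, Car2 and Kel, proteins of the erythroid membrane and cytoplasm, were 5.99-, 4.2-, 3.52- and 2.74-fold lower. For Rhag, Add2 and Car2 the Srsf2 mutated libraries stood near wild type, and the Setd2 knockout libraries above it. Wild type Rhag was at 15.29 and 14.61 CPM. Ermap in wild type lay between the groups, and Kel, at 7.457 and 7.009 CPM, lay below both. In each membrane gene named here the groups did not overlap, as for 64% of all tested genes.

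For heme synthesis and iron import the count was 12 lower and 3 higher of 17. Alas2 (ENSMUSG00000025270, chromosome X, 150547375 to 150570638), the erythroid enzyme of the first step of heme synthesis, stood at 5.747 and 5.353 CPM in the Setd2 knockout and at 235.5, 230.0 and 253.4 in the Srsf2 mutated libraries. That is 43.2-fold higher (5.43 ± 0.0899 SE on the log2 scale, adjusted p = 1.64e-15). Alas1, the enzyme of the same step in other cells, was 2.84-fold lower (629 and 630.6 against 220.8, 224.7 and 220.6 CPM). Cpox and Uros, which act later in the pathway, were 2.89- and 2.3-fold lower, and the mitochondrial iron importer Slc25a37 was 1.35-fold higher. Of the 4 bulk groups, the double mutant libraries held the highest levels of Alas2, Slc4a1 and Hbb-bs (Alas2 at 811.6 to 832.3 CPM), with Klf1 at 113.3 to 123.9 CPM. In bulk samples, fewer cells of a type and less RNA per cell cannot be told apart, here and in every lineage below.

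The promoters of Epor and Alas2 are shown because these red cell genes moved in opposite directions. Each run is 150 bases read toward the start of the gene, ending directly before the RefSeq start (build GRCm38.p6). Capitals mark AGATAAG, a form of the motif of GATA factors, on either strand. It occurred in the 250 bases before the start in 1.83% of the 12037 promoters matched to tested genes. Of this exact form, Epor, whose match reads CTTATCT on the strand shown, held 1 and Alas2 held 0 in that window. The Alas2 run does hold ttatct, which reads AGATAA on the other strand, and such shorter forms were not counted. Epor was the only match among 13 promoters of its list, and of 6 globin promoters that of Hbb-bs, which was higher, held the motif. A match is a run of letters and not a measured binding site.
Epor, chr9:21963577-21963726, minus strand: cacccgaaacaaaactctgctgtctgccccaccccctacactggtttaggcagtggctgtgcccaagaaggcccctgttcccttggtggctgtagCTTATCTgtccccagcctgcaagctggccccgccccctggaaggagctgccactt
Alas2, chrX:150547225-150547374, plus strand: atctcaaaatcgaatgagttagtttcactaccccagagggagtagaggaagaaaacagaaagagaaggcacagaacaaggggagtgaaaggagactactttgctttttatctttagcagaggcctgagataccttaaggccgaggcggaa

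Platelet lineage genes were mixed. Of 20 tested, 7 were lower and 5 higher (median -0.45). The platelet glycoprotein Gp5 was 4.76-fold lower (22.38 and 23.51 against 4.807, 5.387 and 4.227 CPM), Vwf, the von Willebrand factor carried by platelets, was 3.19-fold lower, and the platelet chemokine Pf4 was 2.59-fold lower. Thbs1, the matrix protein thrombospondin, which monocytes also make, was 45.8-fold higher (5.963 and 6.009 against 279.1, 303.5 and 239.6 CPM). Plek, a protein of platelets and leukocytes, was 7.3-fold higher.

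Neutrophil genes were split between lists. Primary granule genes, made at the promyelocyte stage, were lower in the Srsf2 mutated libraries, and genes of later granules and of mature neutrophils were higher. Mpo (ENSMUSG00000009350, chromosome 11, 87793581 to 87804413), the myeloperoxidase of primary granules, stood at 6633 and 7220.0 CPM in the Setd2 knockout and at 4085, 4164 and 4631 in the Srsf2 mutated libraries, 1.61-fold lower (-0.69 ± 0.0666 SE on the log2 scale, adjusted p = 4.03e-07). Elane, neutrophil elastase, was 1.7-fold lower and Prss57, a granule serine protease, 1.76-fold lower, while Ctsc, the protease that activates elastase, was 1.64-fold higher. Of 17 tested primary granule genes 9 were lower and 1 was higher (4 without Srsf2 mutated replicate 2), and all 9 differed by less than 2-fold. Summed over this list, wild type held 32340 and 32360 CPM. Both mutants lay below that, the Setd2 knockout at 17510 and 18810 CPM and the Srsf2 mutated libraries at 12300 to 14520.

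Retnlg (ENSMUSG00000022651, chromosome 16, 48872621 to 48874496), a resistin-like protein of mature neutrophils, went from 13.37 and 12.21 CPM to 172.7, 160.2 and 204.9. This was 14-fold higher (3.81 ± 0.12 SE on the log2 scale, adjusted p = 5.26e-13), and the groups did not overlap. Mmp8, a collagenase of secondary granules, was 9.72-fold higher (16.68 and 15.98 against 163.2, 156.8 and 156 CPM), Il1r2, a decoy receptor of interleukin-1, 6.82-fold, and Trem1, an activating receptor of neutrophils and monocytes, 6.81-fold. For Retnlg, Mmp8, Il1r2 and Trem1, wild type lay between the groups (Retnlg at 24.56 and 20.04 CPM). The alarmin genes S100a8 and S100a9 were 2.14- and 2.4-fold higher and lay below their wild type level in both mutants (S100a8 at 3589 and 4369 CPM in wild type). Summed over the late neutrophil list, wild type held 23090 and 31360 CPM. The Srsf2 mutated libraries held 19260 to 23230 CPM, and the Setd2 knockout was further from wild type at 8835 and 9423. Of 28 tested late neutrophil genes, 26 were higher and 1 was lower (median 1.43), with 25 or 26 higher in each alternative setting. The lower one was Csf3r, the receptor of granulocyte colony-stimulating factor, at 199.9 and 200.3 against 176.6, 183.5 and 164.8 CPM. Its adjusted p was 0.025. The call was lost in a fit without the double mutant libraries (0.0752) and in a fit of only the 5 libraries compared (0.0785). It was also lost with median-of-ratios scaling (0.0579) and with the replicate block (0.0542). The same held without either Setd2 knockout library (-0.21 on the log2 scale without replicate 1 and -0.2 without replicate 2).

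Transcription factors of granulocytes and monocytes were more often higher, 10 of 16, with 3 lower. Irf4, a factor of lymphoid and dendritic cells and of plasma cells, was 20.5-fold higher, from 5.401 and 5.48 CPM to 115.1, 115.8 and 103.3. Klf4, a monocyte factor, was 4.36-fold higher and the retinoic acid receptor Rara 5.22-fold. Gfi1, a repressor that sustains early neutrophil development, moved the other way, from 131.9 and 137.3 CPM to 48.68, 51.71 and 47.63 (2.73-fold lower, adjusted p = 1.22e-10). Cebpe, the factor of the switch to secondary granules, did not pass the test (70.56 and 72.89 against 68.32, 59.36 and 87.27 CPM, adjusted p = 0.99).

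Eosinophil and basophil genes were higher in the Srsf2 mutated libraries. All 10 tested eosinophil genes were higher (median 2.98). Prg2, which encodes the most abundant basic protein of eosinophil granules (ENSMUSG00000027073, chromosome 2, 84980461 to 84983632), had levels of 76.67 and 87.11 CPM in the Setd2 knockout and of 911.3, 816.1 and 1010.0 in the Srsf2 mutated libraries, 11.1-fold higher (3.48 ± 0.0979 SE on the log2 scale, adjusted p = 1.65e-13). Wild type held 454.9 and 464.7 CPM. Alox15, a lipoxygenase of eosinophils, was 71.2-fold higher (0.9074 and 1.587 against 86.96, 88.58 and 91.93 CPM), and Epx, eosinophil peroxidase, was 4.38-fold higher. Ear1 and Ear2, close copies that encode eosinophil ribonucleases, were 28.2- and 13.5-fold higher, with the same limit on near-identical copies as the globins.

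Of 19 tested mast cell and basophil genes 11 were higher and 2 lower (median 1.24). Cyp11a1, a steroid-forming enzyme that basophils express, was 21.5-fold higher (3.349 and 3.28 against 73.7, 72.23 and 67.78 CPM), and the basophil genes Cd200r3 and Prss34 were 15.1- and 7.95-fold higher. Hdc, which makes histamine, was 2.83-fold higher. The mast cell protease Cpa3 overlapped between the groups (68.87 and 64.54 against 75.96, 64.85 and 90.23 CPM, adjusted p = 0.164), but without Srsf2 mutated replicate 2 it was higher by 0.32 on the log2 scale (adjusted p = 0.0182). Il1rl1, the interleukin-33 receptor of mast cells and basophils, and Slc18a2, a transporter that loads amines into granules, were 3.17- and 1.92-fold lower.

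**Figure D2:**
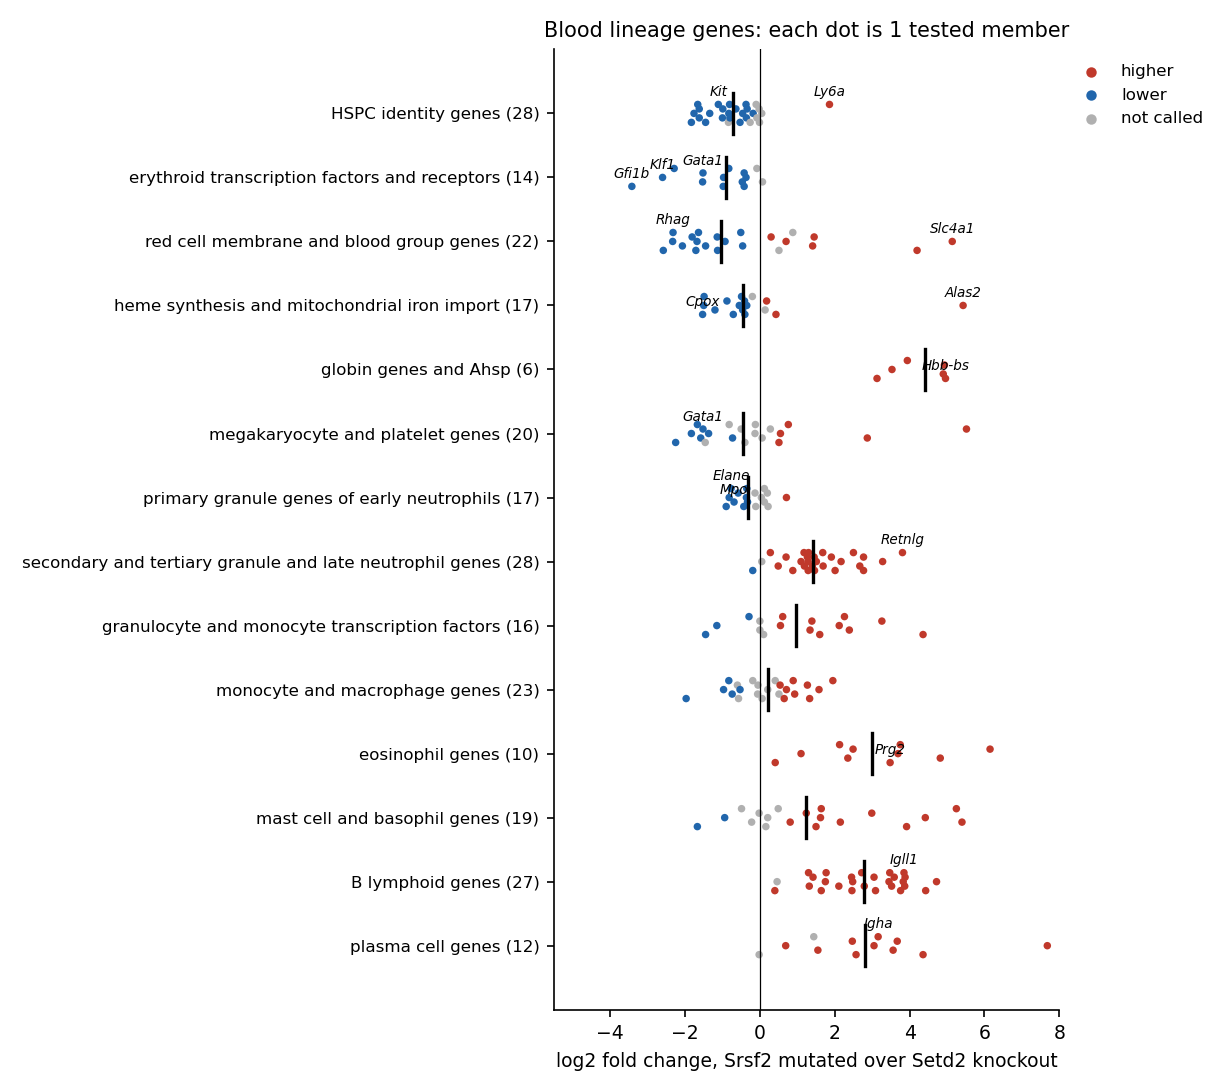
Each dot is 1 tested member of a lineage gene list (number of tested members in parentheses), placed by its log2 fold change in the Srsf2 mutated (n = 3) over the Setd2 knockout libraries (n = 2). Red is called higher, blue called lower, grey not called, and the black bar is the list's median. The red cell membrane and heme lists hold most members on the left and Slc4a1 and Alas2 far on the right.

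B lymphoid genes were higher in the Srsf2 mutated libraries, from the earliest regulators to the pre-B cell receptor. Of 27 tested, 26 were higher and 0 lower (median 2.79), and 26 were higher in each alternative setting. Ebf1 (ENSMUSG00000057098, chromosome 11, 44617317 to 45008091), the factor that commits progenitors to the B lineage, stood at 7.561 and 7.258 CPM in the Setd2 knockout and at 114.7, 113.4 and 96.46 in the Srsf2 mutated libraries (14.6-fold, 3.87 ± 0.133 SE on the log2 scale, adjusted p = 1.65e-12). Pax5, which maintains B identity, was 13.6-fold higher, and Blnk, an adaptor of B cell receptor signaling, 14.2-fold. Vpreb1 and Igll1, which form the surrogate light chain of the pre-B receptor, were 21.5- and 14.4-fold higher. For Igll1 the libraries stood at 10.43 and 11.93 against 158.6, 146.6 and 178.3 CPM. The Setd2 knockout levels of Ebf1, Pax5, Blnk and Igll1 were close to those of wild type (Igll1 at 12.56 and 15.97 CPM).

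Plasma cell genes were higher too, 10 of 12 with 0 lower (median 2.81). Igha (ENSMUSG00000095079, chromosome 12, 113254830 to 113260236), the constant region of immunoglobulin A, went from 341.2 and 355.5 CPM to 2885, 2962 and 3506 (8.95-fold, adjusted p = 4.01e-13). Jchain, which joins secreted antibodies, was 8.26-fold higher, and Ighg1, an immunoglobulin G constant region, stood at 0.108 and 0.2116 against 33.61, 29.96 and 36.8 CPM. Variable region segments followed: 158 of 201 tested immunoglobulin V, D and J segments were higher and 4 lower (median 2.69), a set picked after its values were seen. Segments of one family are close copies, so calls on single segments are uncertain. They raised the share of 2-fold calls on chromosome 12, where the heavy chain locus lies, from 17.9% without segments to 25.8% with them, against 18.2% of all tested genes.

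Of 29 tested T and NK cell genes 21 were higher and 1 was lower (median 1.91; 0 lower without either Setd2 knockout library or Srsf2 mutated replicate 1), with a summed level of 38.59 and 40.4 CPM in the Setd2 knockout and 115.9 to 127.6 in the Srsf2 mutated libraries. Cd3e, which defines T cells, was at 0 in Setd2 knockout replicate 1, at 0.02116 CPM in replicate 2 and at 0.4082 to 0.6255 CPM in the Srsf2 mutated libraries. Gzmb, the protease granzyme B, was 2.37-fold higher (12.08 and 11.34 against 28.93, 25.75 and 28.45 CPM). Of 16 dendritic cell genes 9 were higher and 3 lower. Zbtb46, a factor of conventional dendritic cells, was 7.09-fold lower (15.53 and 16.5 against 2.857, 1.594 and 2.354 CPM), and Xcr1, a receptor of cross-presenting dendritic cells, was 2.58-fold lower, while Tcf4, the factor of plasmacytoid cells, was 1.45-fold higher.

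MHC class II genes were higher in 8 of 11 (5 without Setd2 knockout replicate 2) and lower in 0. Cd74, the invariant chain, stood at 135.2 and 141.6 against 226.3, 239.6 and 261.2 CPM (1.75-fold). Of 13 endothelial and stromal genes 7 were higher and 1 lower, but only 3 were higher without Setd2 knockout replicate 1 and 2 under the stricter filter. Their defining markers were near 0: Cdh5, Col1a1 and Cxcl12 summed to 1.037 and 1.248 CPM in the Setd2 knockout and to 4.657 to 5.692 in the Srsf2 mutated libraries. Monocyte and macrophage genes were mixed, with 9 of 23 higher and 5 lower (median 0.21). Lyz2, lysozyme, was 2.51-fold higher, and Adgre1, the macrophage surface protein F4/80, 3.86-fold. Ccr2, the receptor that draws monocytes out of marrow, was 3.91-fold lower (417.9 and 383.9 against 105.2, 98.12 and 104.5 CPM), with wild type at 67.42 and 62.71. In summed CPM, markers of B cells went from 34.2 and 34.41 to 440.9 to 473.3 and markers of plasma cells from 68.46 and 69.83 to 478.6 to 619.5. The part of such cells in the results for other gene groups was not tested.

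Inflammatory genes of the NF-kB pathway, which turns stimulation through cytokine and microbial receptors into transcription, were higher almost throughout. Of 33 tested NF-kB subunits, feedback inhibitors and targets, 29 were higher and 0 lower (median 2.41), and 26 to 30 were higher over the alternative settings. Il6 (ENSMUSG00000025746, chromosome 5, 30013114 to 30019981), the cytokine interleukin-6, stood at 1.231 and 1.333 CPM in the Setd2 knockout and at 100, 92.98 and 113.8 in the Srsf2 mutated libraries, 79.5-fold higher (6.31 ± 0.149 SE on the log2 scale, adjusted p = 2.62e-14). Wild type held 0.3058 and 0.1411 CPM. Nfkbiz, a nuclear co-regulator that NF-kB induces, was 18.7-fold higher (30.66 and 25.98 against 539.9, 552.9 and 496.6 CPM), Irf1 6.88-fold, and Zc3h12a, an RNase that degrades cytokine mRNAs, 7.91-fold. Ptgs2, the inducible cyclooxygenase, was 13.5-fold higher and Tnf 4.56-fold (7.929 and 7.829 against 35.6, 35.33 and 36.93 CPM).

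The Il6 promoter is shown as that of the list member with the largest fold change. Capitals mark GGANNTTCC, the NF-kB motif, which occurred on either strand in the 250 bases before the start in 10 of the 28 list members with a promoter entry and in 3.76% of the 12037 promoters. The Il6 match began 43 bases before the start.
Il6, chr5:30012964-30013113, plus strand: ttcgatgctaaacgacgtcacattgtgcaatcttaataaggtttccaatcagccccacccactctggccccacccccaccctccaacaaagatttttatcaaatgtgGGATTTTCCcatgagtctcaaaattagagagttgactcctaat

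Secreted cytokines outside the interleukin-1 family were higher in 17 of 26 and lower in 1 (median 1.68). Osm, the cytokine oncostatin M, went from 26.53 and 27.57 CPM to 438.4, 413.3 and 488.2 (16.5-fold), and Csf1, the macrophage growth factor, from 12.57 and 12.4 to 137.3, 146.1 and 123.2 (10.9-fold). The lower one, Tnfsf10, differed by 1.2-fold (adjusted p = 0.0465) and lost its call in 12 of the 14 alternative settings. Chemokine ligands were higher in 14 of 19 and lower in 1, which was Pf4. Ccl4, which attracts monocytes and T cells, was 34.9-fold higher (6.697 and 7.321 against 240.3, 220.2 and 274 CPM), Ccl6 21.5-fold, and Cxcl3, a neutrophil attractant, went from a few reads (0.04321 and 0.02116 CPM) to 3.356, 4.358 and 4.91 CPM. Among 20 chemokine receptors 10 were higher and 3 lower. Cxcr2, the main chemokine receptor of neutrophils, was 4.04-fold higher, while Ccr1 and Ccr2, which lie in 1 cluster on chromosome 9, were lower, with Ccr1 at 101.3 and 94.94 against 38.48, 36.92 and 42.65 CPM.

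Ligands and receptors of the interleukin-1 family were mixed. The ligand gene Il1b (ENSMUSG00000027398, chromosome 2, 129364570 to 129371139) was measured at 1.944 and 2.264 CPM in the Setd2 knockout and at 49.48, 45.44 and 52.19 in the Srsf2 mutated libraries (23.3-fold, 4.54 ± 0.119 SE on the log2 scale, adjusted p = 7.97e-14). Its antagonist Il1rn was 8.0-fold and the interleukin-18 receptor Il18r1 6.59-fold higher. The signaling receptor Il1r1 was 2.1-fold lower (10.26 and 10.66 against 6.054, 4.943 and 3.898 CPM). In all, 5 of 14 members were higher and 3 lower (8 higher by limma voom with sample weights). Of 15 inflammasome components 7 were higher (4 without either Setd2 knockout library) and 2 lower (1 without Setd2 knockout replicate 1), and the median was 0.28. Nlrp3 (ENSMUSG00000032691, chromosome 11, 59541568 to 59566956), the sensor whose own induction primes the inflammasome, had the largest difference of the 15, at 6.74 and 6.686 against 232.6, 251.2 and 205.4 CPM, 34.2-fold higher. Casp4 and Aim2 were 2.41- and 1.34-fold higher, Naip2 1.44-fold lower and Casp1 1.26-fold higher, a call lost without Setd2 knockout replicate 2 (adjusted p = 0.0601).

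Toll-like receptors and adaptors were higher in 10 of 24 and lower in 5 (2 and 3 lower without Setd2 knockout replicates 1 and 2). Tlr2, a receptor of bacterial lipoproteins, was 5.29-fold higher, and Tlr3, a receptor of double-stranded RNA, 2.93-fold lower. The SOCS and JAK-STAT list was split, 8 higher and 7 lower of 22 (median -0.02, from -0.05 to 0.07 over the settings). Feedback inhibitors in it reached high levels: Socs3 (ENSMUSG00000053113, chromosome 11, 117966079 to 117970047) stood at 5.163 and 6.052 against 508.7, 533.7 and 554.2 CPM, 94.8-fold higher (adjusted p = 1.64e-15), and Cish and Socs1 were 35- and 16.4-fold higher. Stat5a, a transcription factor of the pathway, was 2.1-fold lower, and Socs5 2.28-fold lower. Of 27 effectors and receptors tied to myeloid suppressor cells, which the series title names, 22 were higher and 1 lower (median 1.28). Lilrb4a, an inhibitory receptor, was 10.4-fold higher, but the classical effector Arg1 was under 1 CPM in all 5 libraries and not called (adjusted p = 0.643), and Nos2 was under 0.6 CPM, with a call lost without either Setd2 knockout library (0.0708 without replicate 1 and 0.07 without replicate 2).

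Interferon-stimulated genes did not follow the cytokines. Of 41 tested, 16 were lower and 11 higher, and the median was -0.10. Ifih1, Oasl1 and Usp18, which act in RNA sensing and in damping interferon signaling, were 1.85-, 1.96- and 2.15-fold lower. For Ifih1 the libraries stood at 41.22 and 37.58 against 20.91, 21.83 and 20.98 CPM. Rsad2, the antiviral protein viperin, was 7.4-fold higher (6.179 and 5.459 against 42.88, 45.04 and 41.21 CPM), and Ifi27l2a 4.21-fold. Summed over the list, the groups were at nearly the same level, 1002 and 1014 CPM in the Setd2 knockout against 980.3 to 994.3 in the Srsf2 mutated libraries.

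Immediate early genes, which cells switch on within minutes of a stimulus, were higher as a group. Of 27 tested AP-1 and EGR family factors and related genes, 24 were higher and 2 lower (median 2.32). The transcription factor gene Egr3 (ENSMUSG00000033730, chromosome 14, 70077203 to 70082614) was measured at 1.296 and 1.333 CPM in the Setd2 knockout and at 57.8, 57.26 and 48.65 in the Srsf2 mutated libraries, 41.4-fold higher (5.37 ± 0.136 SE on the log2 scale, adjusted p = 5.62e-14). Egr2 was 44-fold higher and Egr1 7.99-fold, at 154.6 and 151.5 against 1225, 1230.0 and 1214 CPM. Fos, a classical gene of the class whose groups did not overlap, did not pass the test (584.6 and 584.4 against 591.5, 597 and 645 CPM, adjusted p = 0.755). Myc, a growth regulator that many stimuli induce, was 2.09-fold lower (402.8 and 408.3 against 183.1, 192.4 and 205.5 CPM). The wild type libraries differed from each other in this class (Fos at 784.4 and 440.5 CPM, Egr1 at 377.3 and 149.5), more than either mutant group did within itself.

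Feedback genes of the same response were higher as well. Of 15 DUSP and Sprouty genes, which switch off MAP kinases, 10 were higher and 0 lower (median 1.17). Dusp5 went from 6.287 and 4.846 CPM to 139.2, 146.8 and 168.7 (27.2-fold), and Dusp16 and Dusp10 were 8.39- and 9.49-fold higher. Kruppel-like factors were higher in 9 of 14 and lower in 3. Klf6 was 6.52-fold, Klf10 3.78-fold and Klf2 2.37-fold higher, while the erythroid factor Klf1 and its target Klf3 were lower (Klf3 1.34-fold).

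The heat shock list held a few very large differences among many small ones. Hspa1a (ENSMUSG00000091971, chromosome 17, 34969190 to 34972156), an inducible HSP70 chaperone, stood at 4.234 and 3.11 CPM in the Setd2 knockout and at 146.5, 136.4 and 145.6 in the Srsf2 mutated libraries (38.9-fold, adjusted p = 2e-14). Its close copy Hspa1b was 23.1-fold higher, at 15.64 and 17.12 against 365.1, 357.6 and 412.6 CPM. Dnajb1, an inducible co-chaperone of HSP70, was 2.45-fold higher. The median over 23 members was 0.27, with 11 higher and 4 lower. Hspa4l and Chordc1, other chaperone genes, were 1.79- and 1.52-fold lower.

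The promoters of both HSP70 genes are shown because reads of these copies can be confused and their promoters are nearly the same: the runs differ at 1 of 150 bases. Capitals mark GAANNTTC, the core of the heat shock element, which began 104 bases before the start in both and occurred in 5.18% of the 12037 promoters.
Hspa1a, chr17:34972157-34972306, minus strand: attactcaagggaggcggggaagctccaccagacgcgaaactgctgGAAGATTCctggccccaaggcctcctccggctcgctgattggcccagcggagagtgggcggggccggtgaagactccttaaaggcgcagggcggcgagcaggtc
Hspa1b, chr17:34959239-34959388, minus strand: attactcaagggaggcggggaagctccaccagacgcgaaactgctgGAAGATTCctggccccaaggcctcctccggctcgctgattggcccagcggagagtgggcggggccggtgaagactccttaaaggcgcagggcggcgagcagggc

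**Figure D3:**
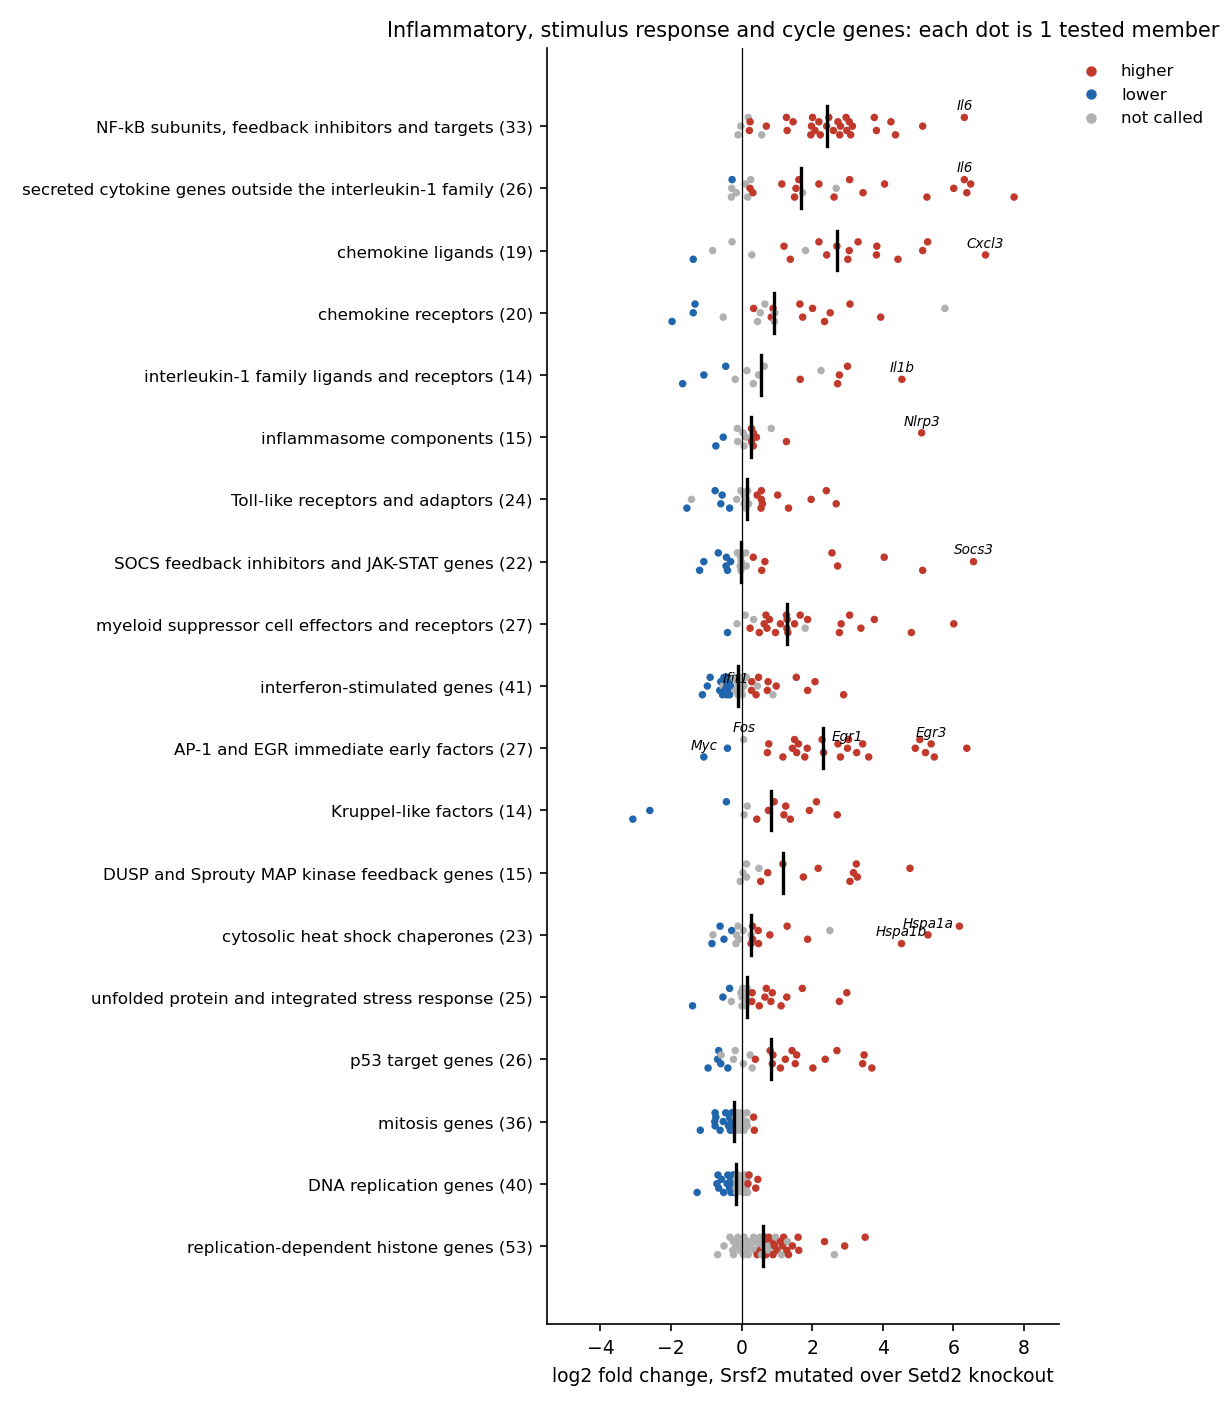
Each dot is 1 tested member of a list of inflammatory, stimulus response or cell cycle genes (number of tested members in parentheses), placed by its log2 fold change in the Srsf2 mutated (n = 3) over the Setd2 knockout libraries (n = 2). Red is called higher, blue called lower, grey not called, and the black bar is the median. NF-kB genes (median 2.41), chemokine ligands (2.70) and immediate early factors (2.32) sit to the right, while interferon-stimulated, mitosis and replication genes centre just left of 0.

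Stress and p53 genes were higher in part. Of 25 genes of the unfolded protein and integrated stress responses 12 were higher and 3 lower (median 0.16). Chac1 and Ddit3, which ATF4 induces, were 7.9- and 2.43-fold higher, Ppp1r15a, which ends the response, 3.29-fold, and Atf4 itself 2.17-fold (270.0 and 276.9 against 570.6, 550.5 and 658.7 CPM). Asns, asparagine synthetase and another ATF4 target, was 2.63-fold lower (111.5 and 114.5 against 43.74, 42.39 and 43.03 CPM). Of 26 p53 targets 15 were higher and 5 lower (median 0.84). Cdkn1a (ENSMUSG00000023067, chromosome 17, 29090976 to 29100727), the cell cycle inhibitor p21, was 11.1-fold higher (8.879 and 10.71 against 99.16, 113.9 and 113 CPM, adjusted p = 2.66e-12). Bbc3 and Pmaip1, which promote cell death, were 6.5- and 5.18-fold higher, and Plk3 10.8-fold. Trp53 itself was 1.6-fold lower (278.3 and 281 against 168.8, 175.5 and 180.0 CPM), and Aen, an exonuclease gene that p53 induces, was 1.57-fold lower.

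Cell cycle genes were more often lower than higher in the Srsf2 mutated libraries, mostly by small amounts. Over all tested genes, 23.2% were lower and 23.1% higher. Of 36 mitosis genes 19 were lower and 2 higher (4 higher without Srsf2 mutated replicate 2; median -0.20), and of 40 DNA replication genes 18 were lower and 4 higher (median -0.14). Without Setd2 knockout replicate 2 the lower replication genes numbered 10, and the higher ones 1 without its replicate 1 and 2 without its replicate 2 or Srsf2 mutated replicate 1. Knl1, a kinetochore protein, was 2.25-fold lower (123 and 114.3 against 58.55, 53.35 and 46.09 CPM), and Mcm10 and Cdc6, which act at replication origins, 1.62- and 1.48-fold lower. Pcna, the sliding clamp of replication, was 1.38-fold higher. Mki67, the proliferation marker, stood at 860.2 and 807.4 against 970.4, 977 and 687 CPM and was not called (adjusted p = 0.617). It was called higher in 2 alternative settings, by 0.23 on the log2 scale without Srsf2 mutated replicate 3 (adjusted p = 0.00278) and by 0.18 with limma voom and sample weights (adjusted p = 0.0167).

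Replication-dependent histone genes were higher in 21 of 53 and lower in 0 (1 without Srsf2 mutated replicate 3; median 0.62). Hist1h1c, a linker histone whose RNA can carry a poly(A) tail, was 5.09-fold higher (49.88 and 55.46 against 248, 255 and 302.1 CPM) and Hist1h2bc 3.07-fold. The labels do not say how these libraries selected RNA, and histone RNAs mostly lack such tails, so their levels depend on that step. Nuclear genes of oxidative phosphorylation were higher in 38 of 82 and lower in 6 (median 0.23), with 20 higher without Setd2 knockout replicate 1 and 2 lower without replicate 2. Ndufs6, a subunit of complex I, was 2.58-fold higher and Cox6b2, a testis form of a complex IV subunit, 2.37-fold lower. Of 14 mitochondrially encoded genes 4 were higher and 1 lower: the ribosomal RNA mt-Rnr2 was 2.43-fold higher and mt-Co1, which encodes cytochrome oxidase, 1.35-fold lower. Mitochondrial RNA made up 1.617% and 1.855% of counts in the Setd2 knockout and 1.341% to 1.597% in the Srsf2 mutated libraries.

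Ribosomal protein genes apart from Rpl29 had no settled direction. Of 84 tested, 14 were higher and 11 lower (median 0.02). The count depended on single libraries: the higher ones numbered 3 without Setd2 knockout replicate 1, 7 without Srsf2 mutated replicate 1, 27 without replicate 2 and 9 without replicate 3, where 26 were lower. Without Setd2 knockout replicate 2 the lower ones numbered 6. Cholesterol synthesis genes were higher in 9 of 23 and lower in 7, a count that came to 3 without either Setd2 knockout library and to 4 without Srsf2 mutated replicate 1 or replicate 2. Insig1, a feedback regulator of the pathway, was 2.28-fold higher (28.97 and 28.31 against 63.31, 66 and 66.95 CPM), and Dhcr7, an enzyme of a late step, 1.53-fold lower.

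Most called genes nearest to the mutated functions differed by less than 2-fold between the single mutants, and some of them stood above wild type in both. Of 27 genes of H3K36 methylation, Setd2 included, 4 were higher and 6 lower (median -0.06), none by 2-fold. Msh6, which reads the trimethyl mark, was 1.53-fold lower and Kdm2b, a demethylase, 1.45-fold lower. The 4 higher ones became 1 without Setd2 knockout replicate 1, and 2 without its replicate 2 or Srsf2 mutated replicate 1. SR proteins were higher in 6 of 15 and lower in 5 (2 and 3 lower without Setd2 knockout replicates 1 and 2, and 3 by DESeq2 and by median-of-ratios scaling). Srsf2 (ENSMUSG00000034120, chromosome 11, 116849901 to 116853094) was 1.4-fold lower in the libraries labelled Srsf2 mutated, at 321.8 and 324.9 against 226.6, 222.3 and 244.8 CPM (-0.48 ± 0.0728 SE on the log2 scale, adjusted p = 4.66e-05). Wild type stood at 282.3 and 244.5 CPM, below both Setd2 knockout libraries. The lower wild type library was level with Srsf2 mutated replicate 3. Srsf5, another SR protein, was 1.94-fold higher (341.2 and 341.3 against 650.0, 642.7 and 695.8 CPM, adjusted p = 9.43e-09), the most positive fold change of the 15. Wild type held less Srsf5 than both mutants, at 154.3 and 156.7 CPM.

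Among 10 kinases that phosphorylate SR proteins, 4 were higher (2 without either Setd2 knockout library) and 2 lower. Clk1 was 1.7-fold higher (181.4 and 167.1 against 288.8, 305.5 and 292.5 CPM) and Srpk1 1.51-fold lower. In wild type Clk1 stood at 74.92 and 58.82 CPM and Clk4 at 34.02 and 30.51, below both single mutants. The largest difference of the list was in Srpk3, named after its values were seen, with a mean of 0.8755 CPM in the Setd2 knockout and 3.742 in the Srsf2 mutated libraries (2.09 on the log2 scale, adjusted p = 6.14e-05). Clk4 was 1.15-fold higher, a call that was lost in 7 of the 14 alternative settings, among them those without either Setd2 knockout library and without Srsf2 mutated replicate 1. Core spliceosome and hnRNP genes were higher in 21 of 48 (13 without Setd2 knockout replicate 1) and lower in 8, none by 2-fold. Hnrnpa2b1, an abundant RNA-binding protein, was 1.35-fold higher (1264 and 1319 against 1726, 1661 and 1857 CPM), and Rbm5, a splicing regulator, 1.84-fold lower.

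Of 16 nuclear-retained and snoRNA host RNAs 3 were higher (1 without either Setd2 knockout library) and 4 lower. Kcnq1ot1, a long RNA of an imprinted locus, was 1.79-fold lower, at 23.01 and 22.87 against 15.71, 14.63 and 7.897 CPM, with its lowest level in Srsf2 mutated replicate 3. Whether the counts kept the strands apart is not given in the sources used here, so reads of such RNAs and of the genes they overlap may be mixed. Of 26 genes recurrently mutated in myelodysplastic syndrome 6 were higher and 5 lower (median 0.02), with 3 higher without either Setd2 knockout library and 2 lower without its replicate 1. Bcorl1, a transcriptional corepressor on the X chromosome, was 2.09-fold lower (33.31 and 31.63 against 15.78, 16.18 and 14.71 CPM). Ezh2, the Polycomb methyltransferase often lost in this disease, overlapped between the groups (191.2 and 186.8 against 192.8, 178.9 and 205.9 CPM, adjusted p = 0.8).

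**Figure D4:**
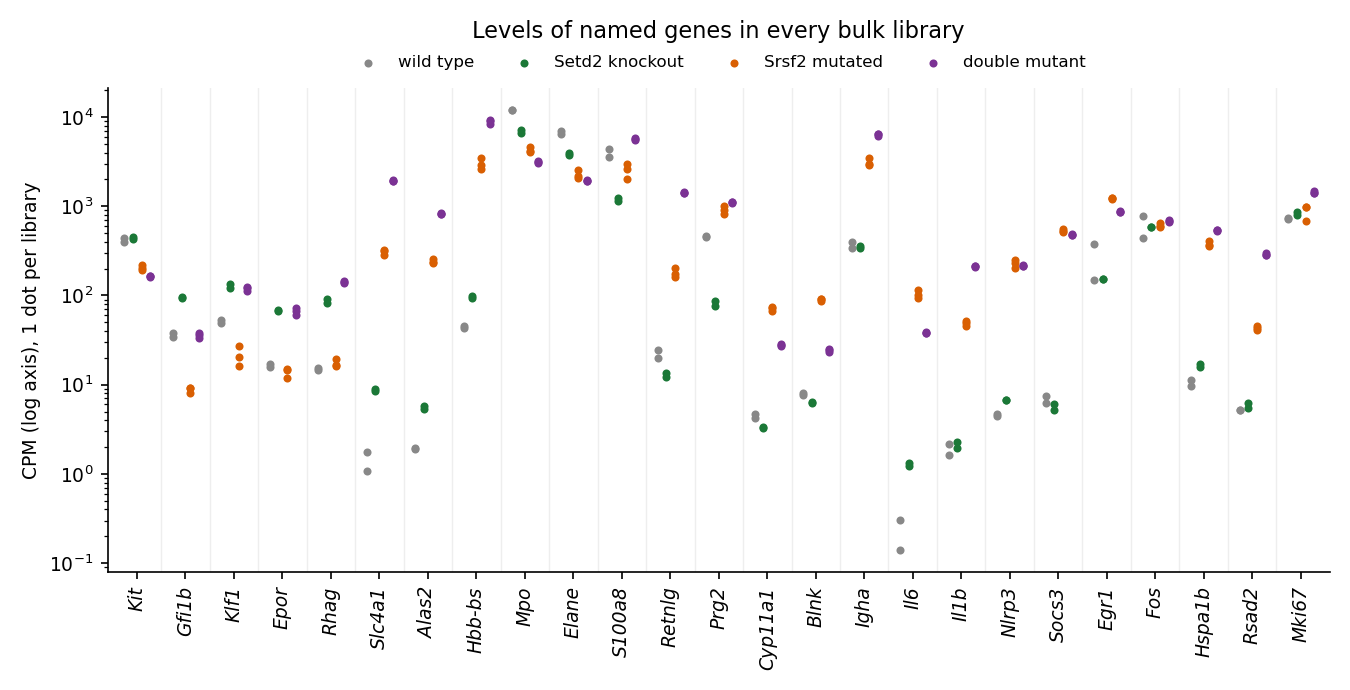
Levels of 25 named genes in each of the 10 bulk libraries (CPM, log axis, 1 dot per library: wild type grey, Setd2 knockout green, Srsf2 mutated orange, double mutant purple). Green and orange dots are the 5 libraries compared; they are separate in all genes shown except Mki67, lie within 1.2-fold of each other for Fos, and are furthest apart for Il6 and Socs3.

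The genes with the largest fold changes were read in each direction, among those with at least 4 CPM in the higher group and no overlap of library values, leaving out immunoglobulin genes and predicted gene models. Mst1r (ENSMUSG00000032584, chromosome 9, 107906873 to 107920383), a receptor tyrosine kinase, was 35.8-fold lower in the Srsf2 mutated libraries, at 38.95 and 37.88 against 0.7256, 1.11 and 1.392 CPM, with wild type at 0.7998 and 0.6586. Acsl6, a fatty acid activating enzyme, was 35.6-fold lower and Slc26a1, an anion transporter, 30.6-fold. Ptpn13, a tyrosine phosphatase, was 28.2-fold lower, Sphk1, which makes sphingosine phosphate, 12.9-fold (114.4 and 121.9 against 7.619, 10.45 and 9.289 CPM), and Pklr, the pyruvate kinase of liver and red cells, 11.5-fold (108 and 113.1 against 9.705, 10.55 and 8.403 CPM). For Pklr, Sphk1 and Acsl6 the Srsf2 mutated libraries lay below wild type and the Setd2 knockout libraries above it.

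In the other direction, the Y-linked genes were followed, in order, by Apol11b (132-fold), Cxcl3, Acod1, Socs3, Serpinb2, Nr4a3, Apol11a and Il6. Acod1 (ENSMUSG00000022126, chromosome 14, 103046977 to 103056573), the enzyme that makes itaconate in activated macrophages, stood at 0.3457 and 0.2962 against 32.72, 31.86 and 28.83 CPM (96.3-fold). Serpinb2, an inhibitor of plasminogen activators that inflammation induces, was 88-fold higher, and Nr4a3, an orphan nuclear receptor and immediate early gene, 83.1-fold. Apol11b and its neighbour Apol11a are close copies, so their single values are uncertain.

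Several large differences lay near the Setd2 gene itself, on distal chromosome 9, in a region whose share of called genes was close to that of all other genes. Rpl29 (ENSMUSG00000048758, chromosome 9, 106429454 to 106431568), a ribosomal protein gene 4.1 Mb from the start of Setd2, stood at 10.11 and 14.6 CPM in the Setd2 knockout and at 584.7, 507.4 and 672.3 in the Srsf2 mutated libraries, 47.6-fold higher (adjusted p = 1.89e-13). Wild type stood at 630.2 and 669.1 CPM. Mst1r lies 2.63 Mb away on the same side and Cish, 35-fold higher, 3.24 Mb away. Paqr9, a membrane receptor gene 14.97 Mb away that was picked after its values were seen, had a mean of 74.33 CPM in the Setd2 knockout and 7.247 in the Srsf2 mutated libraries. Within 20 Mb of Setd2, 190 of 383 tested genes were called (49.6%, against 46.2% of all other genes) and 82 by at least 2-fold (21.4% against 18.2%). On the rest of chromosome 9 the share called was 44.6%. Shares were highest in the nearest 2 Mb (34 of 60 genes, 56.7%) and at 2 to 5 Mb (61 of 113, 54%).

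**Figure D5:**
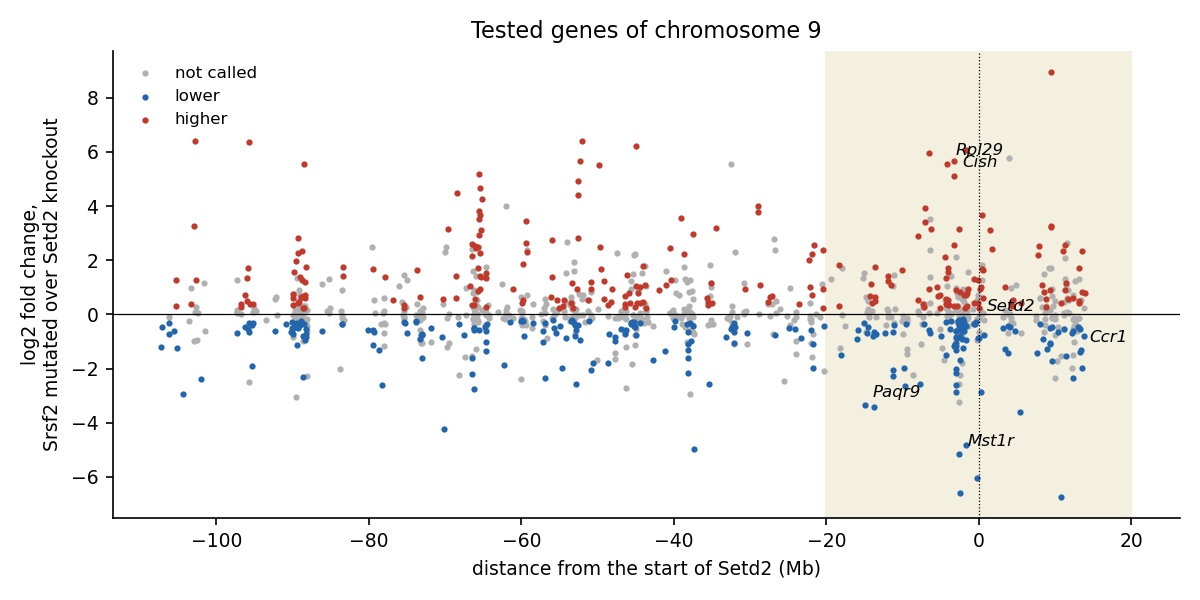
Log2 fold change in the Srsf2 mutated (n = 3) over the Setd2 knockout libraries (n = 2) of each tested gene of chromosome 9, against its distance in Mb from the start of Setd2; the shaded band marks 20 Mb to either side. Red is called higher, blue called lower and grey not called, and Rpl29 and Cish (up) and Mst1r and Paqr9 (down) are among the largest differences inside the band.

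Gene length moved with direction. Tested protein-coding genes were ranked by the deposited length and split into 5 equal bins of 2814. Of the shortest (69 to 2377 bases), 894 were higher and 413 lower (median 0.20). Of the longest (7426 to 123179 bases), 546 were higher and 1015 lower (median -0.14), and the medians of the bins between them fell in order (0.01, -0.06 and -0.11). Over the 14 alternative settings the median was 0.12 to 0.25 for the shortest and -0.17 to -0.08 for the longest genes, and the values nearest to 0 came without Srsf2 mutated replicate 3. The part of length in the results for single gene groups was not tested.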

How the data were processed

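RNA-seq libraries labelled Srsf2 mutated (n = 3) and Setd2 knockout (n = 2), from mouse HSPCs, were compared. The members, gene lists and tests were chosen with earlier results of these data known. Per the file headers, the deposited tables give a raw count per gene and library, FPKM, gene length and the authors' own comparisons, which were not used. Deposited FPKM equalled the count divided by length and total count within a relative difference of 4.88e-08, and was not tested. The submitters' processing notes name, without roles, Seurat 3.2.0, featureCounts 2.0.1, STAR 2.6.1a, DESeq2 1.22.2, SAMtools 1.7, HISAT2 2.0.5 and HTSeq 0.9.1. The 3 tables hold the same 55421 genes; the 5 libraries in 2 tables had identical counts. A total of 27 symbols stored as dates were restored from identifiers. Positions are from GENCODE M21 on GRCm38.

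Genes passing filterByExpr (19289) were scaled by TMM and fitted over the 10 bulk libraries, 1 term per group, by the quasi-likelihood test of edgeR 4.0.16 (R 4.3.3), adjusted over all tested genes by Benjamini-Hochberg. The wild type and double mutant libraries entered the filter, the scaling and the estimate of spread, while the difference tested was between the single mutant groups. A gene was called at an adjusted p under 0.05; CPM are TMM-scaled. A fold against a group at 0 is a lower bound from 3 counts over the group, and covers only the error of counting; PCR copies cannot be told from separate molecules here. The fit was tested on simulated data. Alternatives were other scalings, filters and sets of libraries, DESeq2 1.42.0, limma 3.58.1 voom, a replicate block and leaving out each library.

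Named genes are a fixed set of 54, the 12 largest fold changes in each direction (called, no overlap of library values, at least 4 CPM in the higher group, no predicted models or immunoglobulin segments), and from each of 48 lists the 4 called members of smallest adjusted p in the main direction and up to 2 in the other, at 1 CPM or more; values are printed for part of these. Promoters came from a RefSeq table (GRCm38.p6), which matched 62.4% of tested genes; counts of motif matches over a list are given only where 80% of its members matched. Ahsp, Hbb-b1, Hbb-b2, Il36g, Snhg7 and Norad were not analysed here. A few list members are not reported here.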

Additional observations from a re-analysis of the deposited data

How the results depend on the processing

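Total calls kept within 1.5 times of 8925 in each of the 14 alternative settings, from 6411 to 11007 (limma voom with sample weights), with 48.6% to 53.7% of the calls higher. Leaving out 1 library gave 6411 to 9360, the lowest without Setd2 knockout replicate 1 and the highest without Srsf2 mutated replicate 3. DESeq2 called 9143 genes, of which 8653 were among those called before in the same direction. Deviations of same-numbered libraries were weakly correlated (0.0398 for number 1 and -0.0278 for number 2). The deviations of 2 Setd2 knockout libraries are mirror images, so these values cannot decide whether the numbers mark pairs. A fit with the replicate number as a block called 8481 genes and 188 near Setd2. Of 278 called named genes, 261 kept the call and direction in each setting. Among genes that were not called, the sign changed for Cebpe (0.01 with 7 libraries, with 5 libraries, under the stricter filter, with upper-quartile scaling and without Setd2 knockout replicate 2, 0.03 with DESeq2 and median-of-ratios scaling, 0.02 without Srsf2 mutated replicate 1; leaving out 1 library gave -0.17 to 0.12), with 1 library left out for Mki67 (-0.01 to 0.23), for Ezh2 (-0.01 with the replicate block, and -0.02 to 0.08 with 1 library left out) and, with 1 library left out, for Cd34 (-0.13 to 0.00). List medians changed sign in 4 of 48 lists, all within 0.11 of 0: the SOCS, ribosomal, cholesterol and myelodysplastic syndrome driver lists. For genes with a few reads in the Setd2 knockout libraries (Cxcl3, Cd3e, Nos2), depth limits how well a fold is known.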
